A study of Mus musculus with 36 samples.

Results

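The 10 genes described here carry glucose from the medium to lactate or to the mitochondrion: the glucose transporter Slc2a1, the hexokinases Hk1 and Hk2, the phosphofructokinases Pfkl and Pfkp, the aldolase Aldoa, the phosphoglycerate kinase Pgk1, the pyruvate kinase Pkm, the lactate dehydrogenase Ldha and the pyruvate dehydrogenase kinase Pdk1. They were chosen by name among the 36856 gene symbols of the count table, with earlier results of these data known. All 10 were among the 16065 genes with enough counts to test. Counts of these genes, or of listed genes, beside shares of all genes are therefore descriptions. The 10 genes were followed by bulk RNA-seq through mouse embryonic fibroblasts (MEFs), fibroblasts grown from embryos, in 12 groups of 3 libraries. Cells were wild type (WT) or PERK -/- (called Perk-null). Cells of each genotype received the solvent DMSO, thapsigargin, BtdCPU, halofuginone, BtdCPU with thapsigargin, or halofuginone with thapsigargin. The labels give no dose, time, batch or passage, name a single cell line entry, MEF, for both genotypes, and do not say whether replicates were separate cultures, so p-values measure only the spread between these libraries, which may be technical.

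Glucose enters fibroblasts mainly through Slc2a1 (GLUT1), and hexokinase traps it in the cell as glucose 6-phosphate. Phosphofructokinase makes the committed step of glycolysis, aldolase splits the sugar, Pgk1 and Pkm make ATP, and Ldha turns pyruvate into lactate, while Pdk1 inhibits pyruvate dehydrogenase and so limits the entry of pyruvate into the citric acid cycle. Many of these genes are known targets of the hypoxia-inducible factor HIF-1 and of Myc. PERK (gene Eif2ak3) is the kinase of the endoplasmic reticulum that phosphorylates eIF2α and so starts the integrated stress response. Thapsigargin blocks the calcium pump of that compartment and causes its stress, BtdCPU is known as an activator of another eIF2α kinase, HRI, and halofuginone inhibits prolyl-tRNA synthetase and activates GCN2.

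Library totals ran from 32454257 to 37178107 counts, and 13251 to 14499 genes had at least 10 counts. Levels are given as CPM (counts scaled to a common library size) on library sizes scaled by TMM, and ± is the SD of the 3 libraries of a group. Eif2ak3, the targeted gene, was at 31.1 ± 1.10 CPM in WT and 9.95 ± 0.760 CPM in Perk-null cells in DMSO, and in each of the 6 treatments every Perk-null library was below every WT library. Across treatments its levels overlapped, as Perk-null cells stood at 27.4 ± 3.31 CPM in thapsigargin and 32.1 ± 3.71 CPM in halofuginone with thapsigargin. Of 10 fibroblast markers, 9 were at 10 CPM or more in every library, and the summed markers of epithelial, endothelial, leukocyte, muscle and adipocyte cells stayed between 0 and 23.6 CPM in any library. WT halofuginone replicate 3 and WT BtdCPU replicate 2 lay farthest from the other libraries of their groups, at 0.617 and 0.595 (root mean square log2 distance), against 0.402 to 0.547 for the others.

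The promoters of Hk2 and Pdk1 are shown because these genes moved in opposite directions when thapsigargin was given to Perk-null cells. The capitals mark the HIF-1 core letters ACGTG or GCGTG, on either strand, in the 250 bases before each gene's start, read 5′ to 3′ on the gene's strand from RefSeq GRCm38.p6: chr6:82774455-82774704, minus strand, for Hk2 and chr2:71872974-71873223, plus strand, for Pdk1.
Hk2: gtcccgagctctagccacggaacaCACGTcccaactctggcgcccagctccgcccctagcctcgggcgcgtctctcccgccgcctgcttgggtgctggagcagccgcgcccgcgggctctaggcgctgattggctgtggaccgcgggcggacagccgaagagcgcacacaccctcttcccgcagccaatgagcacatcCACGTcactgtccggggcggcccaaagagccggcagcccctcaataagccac
Pdk1: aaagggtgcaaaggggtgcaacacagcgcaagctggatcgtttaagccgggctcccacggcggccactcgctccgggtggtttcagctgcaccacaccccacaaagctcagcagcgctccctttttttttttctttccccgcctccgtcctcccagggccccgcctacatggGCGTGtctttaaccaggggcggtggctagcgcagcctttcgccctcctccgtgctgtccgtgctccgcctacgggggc
The Hk2 window held 2 matches to ACGTG. Pdk1 had 2 windows, of which the one printed held 1 match to GCGTG and the other no match to either form. Windows were found for all 10 genes, 16 windows in all, and 12 of the 16 held at least 1 such match. Over the 32851 windows of all genes the share with a match to either form was 38.6%, with 16.6% for ACGTG and 28.2% for GCGTG. The E-box CACGTG, which contains ACGTG and was in 6.02% of all windows, was in a window of Ldha alone among the 10 genes. The letters TGATGNAAN of the C/EBP-ATF element were in 3.44% of all windows and in none of these 16.

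The 10 genes did not move as a block. A gene is called changed where edgeR's quasi-likelihood test gave an adjusted p below 0.05 (Benjamini-Hochberg over the 16065 genes), and all adjusted p-values below are of that test. Comparisons of a treatment with the same DMSO group, or of 2 combinations with the same thapsigargin group, share those control libraries. In WT cells thapsigargin raised 2 of the 10, where 24.9% of all tested genes were called higher, and lowered 4, where 22.7% were called lower. BtdCPU raised 3 of the 10 in WT cells and lowered none, beside 12.9% of all genes called higher and 9.31% lower; 58.1% of all its calls were higher, and 45.1% when libraries were scaled by their size only. Halofuginone raised 1 and lowered 7 in WT cells, beside 34.7% of all genes called higher and 33.4% lower. In Perk-null cells thapsigargin raised 3 and lowered 1 (15.2% of all genes higher, 12.7% lower), BtdCPU raised 1 and lowered none (2.55% higher, 1.04% lower), and halofuginone raised 2 and lowered 6 (21.2% higher, 21.0% lower). Aldoa was lost from the Perk-null thapsigargin calls without any 1 of the 6 libraries compared (0.17 to 0.25, adjusted p = 0.0687 to 0.238). It was also lost with DESeq2 size factors, with the compared groups only and with genes of low counts kept in (0.20 to 0.21, adjusted p = 0.0601 to 0.288). Without thapsigargin replicate 3, 2 calls of that comparison were left. With the replicate number as a block the Perk-null BtdCPU count was 4, and it was 0 without any 1 of the 6 libraries other than DMSO replicate 3. Without Perk-null halofuginone replicate 3 the 8 calls of that comparison became 5.

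Halofuginone added to thapsigargin lowered 7 of the 10 below thapsigargin alone in WT cells and raised none, beside 22.5% of all genes called lower and 22.8% higher. In Perk-null cells it raised 2 and lowered 7 (25.2% of all genes higher, 27.5% lower). BtdCPU added to thapsigargin raised 1 and lowered 5 in Perk-null cells (17.3% of all genes higher, 18.3% lower). BtdCPU with thapsigargin called none of the 10 in WT cells, where 2.32% of all genes were called. There edgeR gave 3 of the 10 an unadjusted p below 0.05 and DESeq2 called 1. With the replicate number as a block 3 were called, Aldoa (log2 fold change -0.26, adjusted p = 0.0092; with DESeq2 -0.27, adjusted p = 0.0285), Ldha (-0.33, adjusted p = 0.0080) and Pkm (-0.20, adjusted p = 0.035). The median log2 fold change of the 10 ran from -0.63 (Perk-null, halofuginone with thapsigargin against thapsigargin) to 0.13 (Perk-null, thapsigargin against DMSO) over these 10 comparisons. The medians of all tested genes in those comparisons were -0.01 and 0.05.

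**Figure D1:**
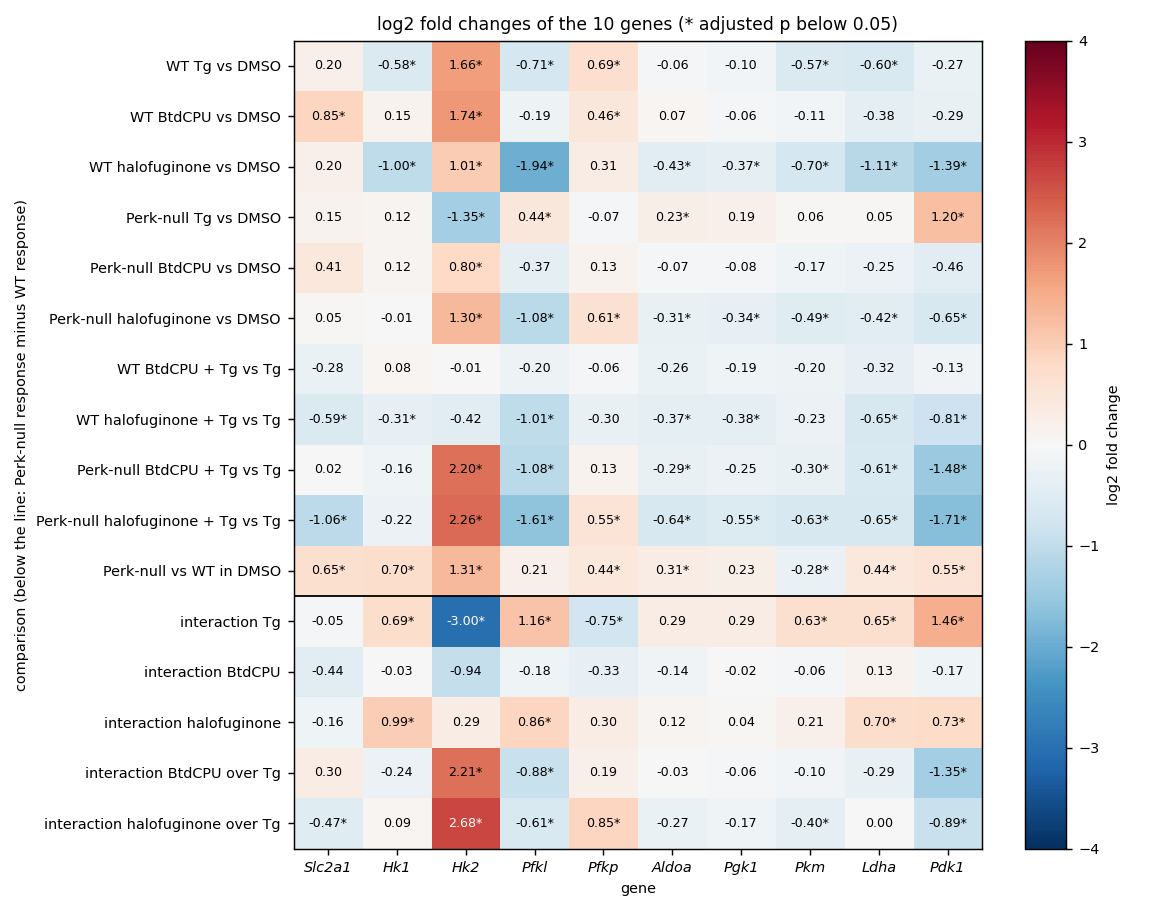
Log2 fold changes of the 10 genes (columns) in 11 comparisons of 2 groups and, below the line, 5 differences in response (Perk-null minus WT; rows); colour and printed number give the log2 fold change and * an edgeR adjusted p below 0.05. Tg stands for thapsigargin. The Hk2 column runs from -3.00 to 2.68 and the Pdk1 column from -1.71 to 1.46, while Pgk1 stays between -0.55 and 0.29.

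Already in DMSO, Perk-null cells held more mRNA of 7 of the 10 genes than WT cells and less of 1, where 24.6% of all tested genes were called higher and 24.9% lower. In bulk samples a level per cell and a share of expressing cells cannot be told apart. WT and Perk-null cells are different cells, and the labels name only MEF for both. An effect of PERK loss, here or in a difference of response, cannot be told apart from another difference between those cells. Hk2 was 2.48-fold higher (log2 1.31, SE 0.23, adjusted p = 2.11e-05), Hk1 1.63-fold (log2 0.70, SE 0.11, adjusted p = 2.56e-06), Slc2a1 1.57-fold (log2 0.65, SE 0.13, adjusted p = 9.54e-05) and Pdk1 1.46-fold (log2 0.55, SE 0.18, adjusted p = 0.0103). Ldha, Pfkp and Aldoa were 1.35-fold, 1.35-fold and 1.24-fold higher, and Pkm was the one called lower, at 0.824-fold. Without WT DMSO replicate 2 the 8 calls became 5. The Ldha, Pfkp and Pkm calls depended on single libraries: Ldha was lost without WT DMSO replicate 2 or 3 or Perk-null DMSO replicate 2, Pfkp without WT DMSO replicate 2 or 3 or Perk-null DMSO replicate 1 or 2, and Pkm without WT DMSO replicate 1 or 2 or Perk-null DMSO replicate 3. Pfkl and Pgk1 did not pass (log2 0.21 and 0.23), and Pfkl passed without WT DMSO replicate 3 (0.36) and with libraries scaled by their size only (adjusted p = 0.0386). Scaling by size ended the Pkm call (-0.22, adjusted p = 0.0823), and keeping genes of low counts in ended that of Aldoa (0.27, adjusted p = 0.0693). Per kilobase of exon, the order of the levels in WT cells in DMSO ran from Pkm (999 CPM per kb), Ldha (583) and Aldoa (267) through Pgk1 (54.8), Pfkl (45.8), Slc2a1 (35.5) and Hk1 (26.6) to Hk2 (4.08), Pfkp (3.72) and Pdk1 (1.88).

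Slc2a1, the transporter, rose with BtdCPU alone in WT cells and fell when halofuginone was added to thapsigargin in both genotypes. The WT libraries read 110, 118 and 119 CPM in DMSO and 233, 179 and 212 CPM in BtdCPU. Every BtdCPU library was above every DMSO library, a 1.80-fold rise (log2 0.85, SE 0.13, adjusted p = 1.47e-05). The Perk-null libraries read 178, 185 and 182 CPM in DMSO and 242, 236 and 244 CPM in BtdCPU. These groups did not overlap either, and the rise (log2 0.41, SE 0.13) missed the threshold at an adjusted p of 0.0740 and passed it with the replicate block (0.41, adjusted p = 0.012), with genes of low counts kept in (0.0185), with the compared groups only (0.00307) and with DESeq2 (0.0389). The difference in the BtdCPU response between genotypes was not called (-0.44, SE 0.18, adjusted p = 0.387).

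With thapsigargin, Slc2a1 stood at 147, 132 and 120 CPM in WT and 187, 199 and 217 CPM in Perk-null cells. With halofuginone added it stood at 95.1, 92.1 and 78.3 CPM in WT and 97.2, 106 and 86.0 CPM in Perk-null cells. The halofuginone combination therefore lay below thapsigargin alone in every library of both genotypes, at 0.666-fold in WT (log2 -0.59, SE 0.13, adjusted p = 0.000407) and 0.480-fold in Perk-null cells (log2 -1.06, SE 0.13, adjusted p = 3.55e-08). The fall was larger in Perk-null cells (difference -0.47, SE 0.18, adjusted p = 0.0439), a call that was lost without any 1 of 9 of the 12 libraries, with values of -0.50 to -0.35. It was also lost with libraries scaled by their size only (-0.44, adjusted p = 0.0598) and with genes of low counts kept in (-0.40, adjusted p = 0.0865). The 3 libraries it did not hang on were WT halofuginone with thapsigargin replicate 3, WT thapsigargin replicate 1 and Perk-null thapsigargin replicate 1. Neither thapsigargin alone nor halofuginone alone gave a call for Slc2a1 in either genotype (log2 0.05 to 0.20). Over all 12 groups Perk-null cells in BtdCPU stood highest, at 240 ± 3.89 CPM and apart from the next. The halofuginone with thapsigargin groups stood lowest and overlapped, at 96.3 ± 9.91 CPM in Perk-null and 88.5 ± 8.95 CPM in WT cells.

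Hk1, the hexokinase that most tissues make at a steady level, fell in WT cells with thapsigargin and with halofuginone and kept a narrow range in Perk-null cells. WT libraries read 131, 108 and 148 CPM in DMSO, 81.8, 81.5 and 95.8 CPM in thapsigargin and 71.2, 56.0 and 65.9 CPM in halofuginone. All 6 treated libraries were below all 3 of DMSO: the fall was to 0.670-fold with thapsigargin (log2 -0.58, SE 0.11, adjusted p = 5.58e-05) and 0.500-fold with halofuginone (log2 -1.0, SE 0.11, adjusted p = 1.89e-09). Across the 6 Perk-null groups the means ran only from 194 ± 13.7 CPM (halofuginone with thapsigargin) to 228 ± 7.92 CPM (BtdCPU), each neighbour in that order overlapping the next, and no Perk-null treatment gave a call. The genotypes differed in their Hk1 response to thapsigargin (difference 0.69, SE 0.15, adjusted p = 0.00053) and to halofuginone (0.99, SE 0.15, adjusted p = 1.13e-05). Adding halofuginone to thapsigargin lowered WT Hk1 a little further (log2 -0.31, SE 0.11, adjusted p = 0.0189), a call lost without WT halofuginone with thapsigargin replicate 1 (-0.29) or WT thapsigargin replicate 3 (-0.23).

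Hk2, the inducible hexokinase, gave the largest difference in response between genotypes among the 10. In DMSO the libraries read 23.3, 17.8 and 27.6 CPM in WT and 52.7, 48.7 and 68.6 CPM in Perk-null cells. With thapsigargin they read 73.6, 53.9 and 88.9 CPM in WT and 19.9, 20.9 and 26.1 CPM in Perk-null cells. The order of the genotypes was thus turned over, with no overlap either time: thapsigargin raised Hk2 3.15-fold in WT (log2 1.66, SE 0.23, adjusted p = 7.12e-07) and lowered it to 0.394-fold in Perk-null cells (log2 -1.35, SE 0.23, adjusted p = 3.73e-05). The difference between these responses was -3.00 on the log2 scale (SE 0.33, adjusted p = 1.48e-08), in the comparison where 7 of the 10 genes and 38.1% of all tested genes were called.

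Either compound added to thapsigargin ended the low Hk2 level of Perk-null cells. The Perk-null libraries read 99.9, 86.4 and 120 CPM in BtdCPU with thapsigargin and 105, 104 and 112 CPM in halofuginone with thapsigargin. All 6 were above all 3 thapsigargin libraries and all 3 DMSO libraries, and the rise over thapsigargin was 4.58-fold with BtdCPU (log2 2.20, SE 0.24, adjusted p = 1.43e-08) and 4.81-fold with halofuginone (log2 2.26, SE 0.24, adjusted p = 1.71e-09). In WT cells, where thapsigargin alone had already raised Hk2, the combinations stood at 82.3, 58.0 and 74.7 CPM (BtdCPU) and 61.3, 58.4 and 42.2 CPM (halofuginone), overlapping thapsigargin alone, and gave no call (log2 -0.01, SE 0.23, and -0.42, SE 0.23, adjusted p = 0.994 and 0.134). Without WT thapsigargin replicate 2 the halofuginone value passed (-0.61, adjusted p = 0.045), as it did with genes of low counts kept in (-0.46, adjusted p = 0.00124). The difference between genotypes was 2.21 for BtdCPU over thapsigargin (SE 0.32, adjusted p = 8.27e-06), where 3 of the 10 genes and 20.8% of all genes were called. For halofuginone over thapsigargin the difference was 2.68 (SE 0.33, adjusted p = 1.69e-07). There 6 of the 10 and 32.7% of all genes were called, and 3 of the 10 without WT halofuginone with thapsigargin replicate 2.

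Without thapsigargin, both compounds raised Hk2 in both genotypes. WT libraries read 91.5, 40.9 and 96.2 CPM in BtdCPU and 54.0, 51.4 and 33.2 CPM in halofuginone, and Perk-null libraries read 102, 88.0 and 106 CPM in BtdCPU and 141, 136 and 143 CPM in halofuginone. All of these were above the DMSO libraries of their genotype, by 3.33-fold (log2 1.74, adjusted p = 2.13e-06) and 2.02-fold (log2 1.01, adjusted p = 0.000297) in WT and 1.74-fold (log2 0.80, adjusted p = 0.0417) and 2.47-fold (log2 1.30, adjusted p = 2.47e-05) in Perk-null cells. The Perk-null BtdCPU call was lost without any BtdCPU replicate or without DMSO replicate 1 or 2 (log2 0.70 to 0.86). Perk-null cells in halofuginone held the highest mean of all 12 groups, 140 ± 3.79 CPM, apart from the next, and Perk-null cells in thapsigargin held the lowest, 22.3 ± 3.30 CPM, which overlapped WT cells in DMSO. No member was called for a different BtdCPU response between genotypes, where 0.199% of all genes (32) were. There 2 members had an unadjusted p below 0.05, Hk2 (-0.94, SE 0.32, adjusted p = 0.271) and Slc2a1, and DESeq2 called 0. Hk2 passed without WT BtdCPU replicate 2 (-1.24, adjusted p = 0.0063) and where genes with low counts were kept in (-0.93, adjusted p = 5.95e-05).

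**Figure D2:**
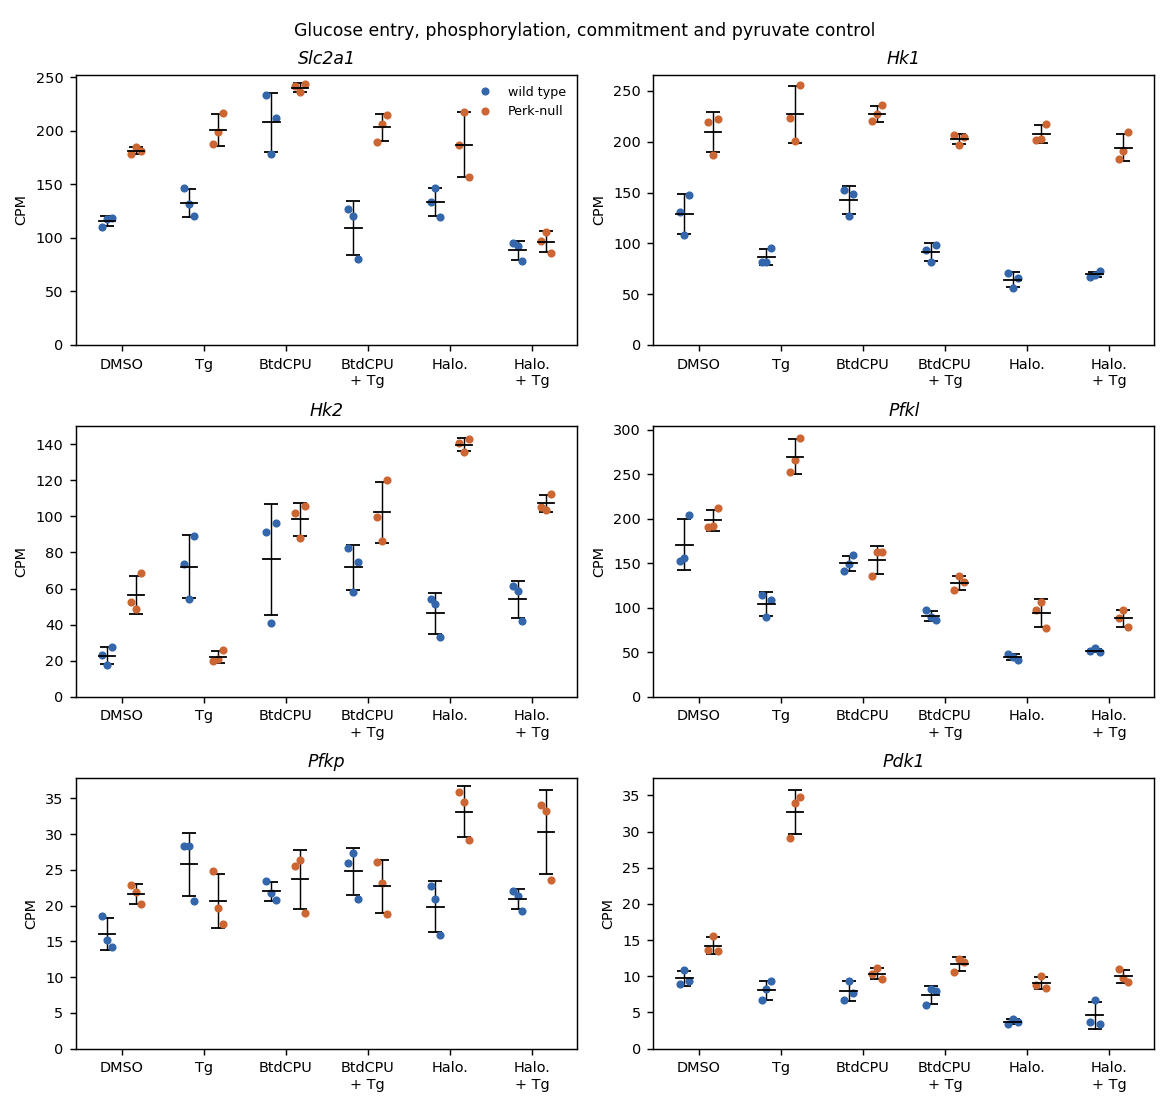
CPM (linear axis from 0) of Slc2a1, Hk1, Hk2, Pfkl, Pfkp and Pdk1 by treatment, with a point for each library, a line at the mean of 3 and bars of 1 SD, WT in blue and Perk-null in orange; Tg is thapsigargin and Halo. is halofuginone. In the Hk2 panel the genotypes cross at thapsigargin (72.1 CPM in WT, 22.3 CPM in Perk-null cells), and in the Pdk1 panel Perk-null cells in thapsigargin stand alone at 32.7 CPM.

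The balance between the hexokinases is given as a share. With CPM divided by exon length, Hk2 made up 13.2% ± 0.741 of Hk1 plus Hk2 in WT cells in DMSO and 41.5% ± 4.49 in thapsigargin, against 18.9% ± 1.97 and 7.82% ± 0.576 in Perk-null cells. The other WT treatments stood between 30.6% ± 7.73 (BtdCPU) and 40.3% ± 2.64 (BtdCPU with thapsigargin). The remaining Perk-null treatments stood between 27.2% ± 1.81 (BtdCPU) and 36.8% ± 0.719 (halofuginone). Hk1 therefore remained the larger of the pair per kilobase in the mean of every group, and no library gave Hk2 more than 44.5%.

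**Figure D3:**
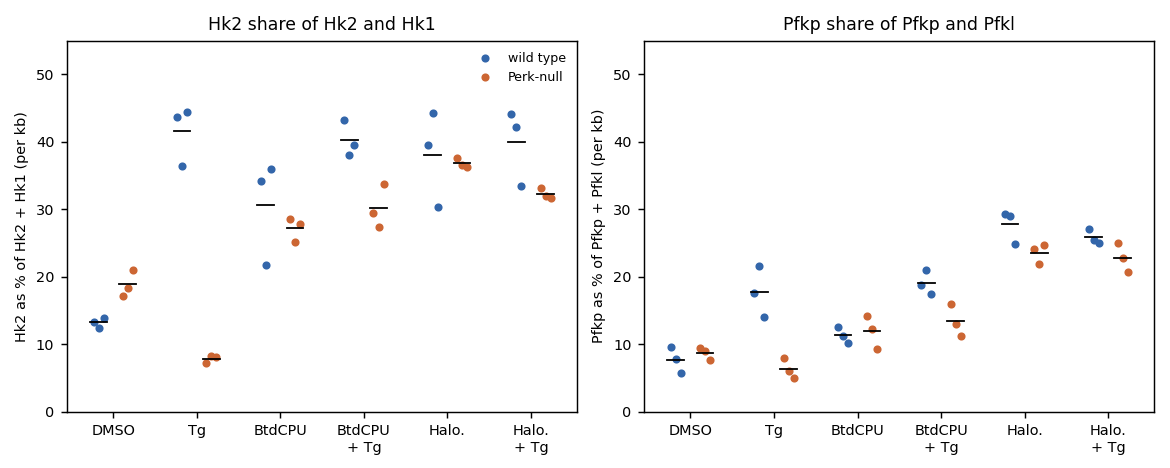
Share of Hk2 in Hk1 plus Hk2 and of Pfkp in Pfkp plus Pfkl, in percent of CPM per kilobase of exon, by treatment and genotype. A point stands for each library and a line for the mean, Tg is thapsigargin and Halo. is halofuginone. The Hk2 share ran from 7.82% (Perk-null, thapsigargin) to 41.5% (WT, thapsigargin), and the Pfkp share from 6.29% (Perk-null, thapsigargin) to 27.8% (WT, halofuginone).

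Pfkl, the liver-type phosphofructokinase, fell with thapsigargin in WT cells and rose with it in Perk-null cells, and fell with halofuginone in both. WT libraries read 153, 156 and 204 CPM in DMSO, 115, 89.1 and 109 CPM in thapsigargin and 47.7, 44.2 and 41.7 CPM in halofuginone. The treated libraries were all below DMSO, at 0.611-fold with thapsigargin (log2 -0.71, SE 0.12, adjusted p = 8.07e-06) and 0.261-fold with halofuginone (log2 -1.94, SE 0.12, adjusted p = 8.24e-15). Perk-null libraries read 191, 192 and 211 CPM in DMSO, 252, 266 and 291 CPM in thapsigargin and 97.8, 107 and 76.9 CPM in halofuginone. Here thapsigargin raised Pfkl 1.36-fold (log2 0.44, SE 0.12, adjusted p = 0.00396; 0.34 and not called without thapsigargin replicate 3), and halofuginone lowered it to 0.474-fold (log2 -1.08, SE 0.12, adjusted p = 9.13e-09). The responses differed between genotypes by 1.16 (SE 0.16, adjusted p = 1.37e-06) for thapsigargin and 0.86 (SE 0.17, adjusted p = 0.000158) for halofuginone, where 4 of the 10 genes and 35.0% of all genes were called.

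BtdCPU alone left Pfkl at 150 ± 8.73 CPM in WT and 153 ± 15.8 CPM in Perk-null cells, neither called (log2 -0.19, and -0.37 with an adjusted p of 0.0737, which passed with the replicate block at -0.37, adjusted p = 0.019, with the compared groups only at 0.0196 and with DESeq2 at 0.033). Added to thapsigargin, BtdCPU lowered Pfkl in Perk-null cells to 120, 135 and 129 CPM, 0.474-fold of thapsigargin alone (log2 -1.08, SE 0.12, adjusted p = 1.67e-08), while the WT value was not called (log2 -0.20, adjusted p = 0.406). Added halofuginone lowered it to 0.327-fold in Perk-null (log2 -1.61, SE 0.12, adjusted p = 1.13e-12) and 0.498-fold in WT cells (log2 -1.01, SE 0.12, adjusted p = 3.82e-08). The genotypes differed in both cases, by -0.88 (adjusted p = 0.000204) and -0.61 (adjusted p = 0.00479). Perk-null cells in thapsigargin held the highest Pfkl mean of the 12 groups, 270 ± 19.8 CPM, and WT cells in halofuginone the lowest, 44.5 ± 2.99 CPM, each apart from its neighbour in the order.

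Pfkp, the platelet-type enzyme, was low and had a smaller range, 16.0 ± 2.23 to 33.1 ± 3.52 CPM over the 12 groups, with every group overlapping its neighbour in that order. In WT cells it rose with thapsigargin from 18.5, 15.3 and 14.2 to 28.3, 28.3 and 20.7 CPM (1.61-fold, log2 0.69, SE 0.17, adjusted p = 0.00108). The WT rise with BtdCPU (log2 0.46, adjusted p = 0.0463) was lost without any BtdCPU replicate or without DMSO replicate 2 or 3 (0.38 to 0.50). It was also lost with libraries scaled by their size only (0.38, adjusted p = 0.119), with DESeq2 size factors (0.45, adjusted p = 0.0502) and with the compared groups only (0.46, adjusted p = 0.0858). The WT value with halofuginone (log2 0.31, adjusted p = 0.0991) passed only with the replicate block (0.31, adjusted p = 0.0050) or without WT halofuginone replicate 3 (0.40) or WT DMSO replicate 1 (0.43). In Perk-null cells halofuginone raised Pfkp from 22.9, 21.9 and 20.2 to 35.8, 34.4 and 29.2 CPM (1.53-fold, log2 0.61, SE 0.16, adjusted p = 0.00314), and halofuginone with thapsigargin raised it 1.47-fold over thapsigargin (log2 0.55, adjusted p = 0.00544). In WT cells the last value was -0.30 (adjusted p = 0.143), called lower with the replicate block (-0.29, adjusted p = 0.0092) and without WT thapsigargin replicate 3 (-0.44). The genotypes differed in the response to thapsigargin (-0.75, SE 0.24, adjusted p = 0.011) and to halofuginone over thapsigargin (0.85, SE 0.23, adjusted p = 0.00496). Per kilobase, Pfkp made up 7.69% ± 1.90 of Pfkp plus Pfkl in WT cells in DMSO, 27.8% ± 2.50 in WT cells in halofuginone and 6.29% ± 1.49 in Perk-null cells in thapsigargin. Pfkp overlaps Pitrm1, which had 7679 to 16709 counts, in the GRCm38 annotation, and whether strand was used in counting is not given in the sources used here, so reads of the pair may be mixed.

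Pdk1, the pyruvate dehydrogenase kinase, had the widest range of the 10, 8.76-fold between its lowest and highest group mean. WT libraries read 8.91, 10.9 and 9.41 CPM in DMSO and 6.71, 8.27 and 9.33 CPM in thapsigargin, overlapping and not called (log2 -0.27, SE 0.18, adjusted p = 0.228). Perk-null libraries read 13.6, 15.6 and 13.6 CPM in DMSO and 29.2, 34.0 and 34.8 CPM in thapsigargin. Every thapsigargin library stood apart from every other library of the series, and the rise was 2.29-fold (log2 1.20, SE 0.17, adjusted p = 2.76e-06). The genotype difference in this response was 1.46 (SE 0.25, adjusted p = 1.96e-05).

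With either compound added, Pdk1 stood far below that level. Perk-null libraries read 10.6, 12.4 and 12 CPM in BtdCPU with thapsigargin and 11.0, 9.79 and 9.22 CPM in halofuginone with thapsigargin. All 6 were below the 3 DMSO libraries too, and against thapsigargin alone Pdk1 fell to 0.358-fold (log2 -1.48, SE 0.18, adjusted p = 7.29e-08) and 0.307-fold (log2 -1.71, SE 0.18, adjusted p = 1.33e-09). In WT cells BtdCPU over thapsigargin gave no call (log2 -0.13, adjusted p = 0.758), and halofuginone over thapsigargin lowered Pdk1 to 0.568-fold, 3.69, 6.77 and 3.34 CPM (log2 -0.81, SE 0.18, adjusted p = 0.000518), with 1 library inside the thapsigargin range. The genotypes differed by -1.35 (adjusted p = 0.000174) for BtdCPU and -0.89 (adjusted p = 0.00654) for halofuginone, the latter not called without WT halofuginone with thapsigargin replicate 2 (-0.50). Halofuginone alone lowered Pdk1 to 3.38, 4.13 and 3.67 CPM in WT (0.383-fold, log2 -1.39, SE 0.19, adjusted p = 1.11e-07) and to 9.06 ± 0.824 CPM in Perk-null cells (0.636-fold, log2 -0.65, SE 0.18, adjusted p = 0.00323), a difference of 0.73 (adjusted p = 0.0254; lost without WT DMSO replicate 2 or Perk-null DMSO replicate 1, at 0.65 and 0.70). BtdCPU alone gave no call in WT (log2 -0.29) or Perk-null cells (-0.46, adjusted p = 0.168, and 0.021 with the replicate block and 0.0262 with the compared groups only).

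Ldha, which makes lactate, fell with thapsigargin and halofuginone in WT cells. WT libraries read 1168, 1084 and 1062 CPM in DMSO, 843, 719 and 626 CPM in thapsigargin and 588, 549 and 395 CPM in halofuginone, with no overlap with DMSO. The falls were to 0.660-fold (log2 -0.60, SE 0.15, adjusted p = 0.00168) and 0.463-fold (log2 -1.11, SE 0.15, adjusted p = 1.72e-07). In Perk-null cells thapsigargin left Ldha at 1506, 1672 and 1475 CPM against 1440, 1651 and 1391 CPM in DMSO (log2 0.05, adjusted p = 0.850), and halofuginone lowered it to 0.749-fold (log2 -0.42, adjusted p = 0.0272), a call lost without halofuginone replicate 1 or 3 or DMSO replicate 2 (-0.42, -0.32 and -0.34). The genotypes differed by 0.65 for thapsigargin (SE 0.22, adjusted p = 0.0161; 0.56 and not called without WT thapsigargin replicate 3) and by 0.70 for halofuginone (SE 0.22, adjusted p = 0.0122). Against thapsigargin, Ldha fell to 0.635-fold with halofuginone in WT cells and to 0.654-fold with BtdCPU and 0.636-fold with halofuginone in Perk-null cells (log2 -0.65, -0.61 and -0.65, adjusted p = 0.000741, 0.00198 and 0.000571). BtdCPU alone gave -0.38 in WT cells (adjusted p = 0.0738), called with the replicate block (-0.39, adjusted p = 0.00041) and without WT BtdCPU replicate 2 (-0.53). It was also called with libraries scaled by their size only (-0.45, adjusted p = 0.0441), with genes of low counts kept in (-0.38, adjusted p = 0.0112) and with DESeq2 (-0.39, adjusted p = 0.0482). The highest Ldha means, 1551 ± 106 CPM in Perk-null cells in thapsigargin and 1494 ± 138 CPM in DMSO, overlapped each other and no other group.

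Pkm, the last ATP-making step, also fell in WT cells with thapsigargin and halofuginone. Its WT libraries read 2624, 2681 and 2481 CPM in DMSO, 2019, 1739 and 1504 CPM in thapsigargin and 1679, 1635 and 1478 CPM in halofuginone, a fall to 0.676-fold (log2 -0.57, SE 0.10, adjusted p = 2.91e-05) and 0.615-fold (log2 -0.70, SE 0.10, adjusted p = 4.14e-07). In Perk-null cells thapsigargin gave 2232 ± 81.7 against 2138 ± 70.0 CPM in DMSO (log2 0.06, not called), and halofuginone lowered Pkm to 0.714-fold (log2 -0.49, SE 0.10, adjusted p = 0.000234). The thapsigargin responses differed between genotypes by 0.63 (SE 0.14, adjusted p = 0.000769). Over thapsigargin, halofuginone lowered Pkm to 0.647-fold in Perk-null cells (log2 -0.63, adjusted p = 4.44e-06), BtdCPU to 0.815-fold (log2 -0.30, adjusted p = 0.0221; lost without any 1 of the 6 libraries, -0.30 to -0.21, and with genes of low counts kept in, -0.26, adjusted p = 0.0974), and WT cells with halofuginone gave -0.23 (adjusted p = 0.065), called with the replicate block (-0.22, adjusted p = 0.0034) and without WT thapsigargin replicate 3 (-0.33). The genotype difference of the halofuginone value, -0.40 (adjusted p = 0.0318), was lost without any 1 of 10 of the 12 libraries, all but WT halofuginone with thapsigargin replicate 3 and WT thapsigargin replicate 1, at -0.40 to -0.28. It was also lost with libraries scaled by their size only, with genes of low counts kept in and with the compared groups only (adjusted p = 0.063, 0.184 and 0.116). The highest Pkm means were those of WT cells in DMSO and BtdCPU, 2596 ± 103 and 2408 ± 208 CPM, which overlapped, and the lowest that of Perk-null cells in halofuginone with thapsigargin, 1444 ± 136 CPM.

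Aldoa and Pgk1, the aldolase and the first ATP-making enzyme, had narrow ranges, 1.96-fold and 1.86-fold between their lowest and highest group means. Over the 12 groups Aldoa means ran from 507 to 995 CPM and Pgk1 means from 71.6 to 133 CPM, both lowest in WT cells with halofuginone and thapsigargin and highest in Perk-null cells with thapsigargin. Halofuginone lowered Aldoa to 0.744-fold in WT (log2 -0.43, adjusted p = 6.28e-05) and 0.807-fold in Perk-null cells (log2 -0.31, adjusted p = 0.00412; -0.23 and lost without Perk-null halofuginone replicate 3). It lowered Pgk1 to 0.771-fold in WT (log2 -0.37, adjusted p = 0.0132) and 0.793-fold in Perk-null cells (log2 -0.34, adjusted p = 0.0396; lost without any 1 of the 6 libraries but halofuginone replicate 2, -0.36 to -0.23). Thapsigargin changed neither in WT cells (log2 -0.06 and -0.10). In Perk-null cells it gave 0.23 for Aldoa (977, 995 and 1012 against 855, 864 and 818 CPM, adjusted p = 0.0397) and 0.19 for Pgk1 (adjusted p = 0.313, and 0.18 with an adjusted p of 0.047 with the replicate block).

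Added halofuginone lowered both genes below thapsigargin alone in both genotypes: Aldoa with log2 -0.37 for WT and -0.64 for Perk-null (adjusted p = 0.000629 and 1.98e-07), Pgk1 with -0.38 and -0.55 (adjusted p = 0.0192 and 0.000774). The WT Pgk1 call was lost without WT halofuginone with thapsigargin replicate 2 or 3 or WT thapsigargin replicate 1 (-0.33, -0.30 and -0.22), and with the compared groups only (adjusted p = 0.0776). Added BtdCPU lowered Aldoa in Perk-null cells (log2 -0.29, adjusted p = 0.00896), a call lost without BtdCPU with thapsigargin replicate 1 or 3 or thapsigargin replicate 2 or 3 (-0.25 to -0.21) and with genes of low counts kept in (-0.25, adjusted p = 0.119), and gave -0.25 for Pgk1 (adjusted p = 0.144, and 0.0062 with the replicate block). The genotypes did not pass for a different thapsigargin response of Aldoa (0.29, adjusted p = 0.0565) or Pgk1 (0.29, adjusted p = 0.227), and both passed with the replicate block (0.30 each, adjusted p = 0.0099 and 0.017). Leaving out WT thapsigargin replicate 1 (0.35) or DMSO replicate 2 (0.33), or scaling by library size only (0.31, adjusted p = 0.0447), also let Aldoa pass. Aldoart1, a near copy of Aldoa, had 415 to 1128 counts per library, so reads of the pair may be divided between them.

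**Figure D4:**
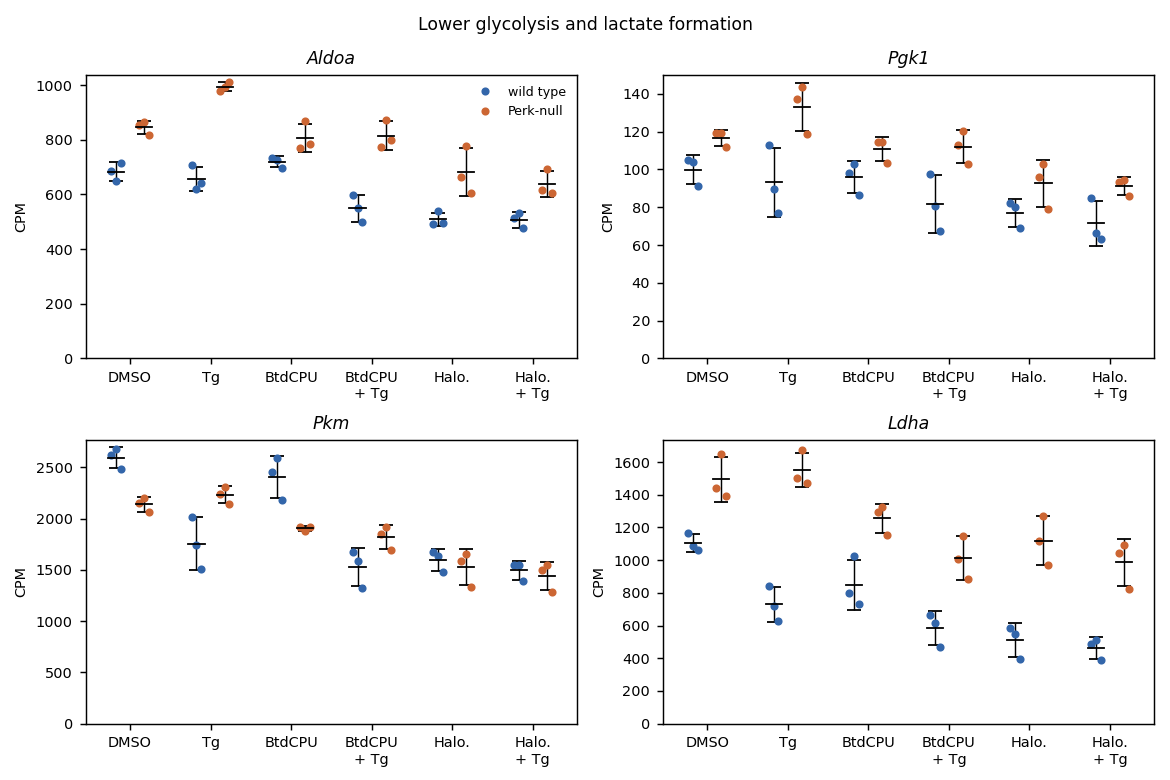
CPM (linear axis from 0) of Aldoa, Pgk1, Pkm and Ldha by treatment, with a point for each library, a line at the mean of 3 and bars of 1 SD, WT in blue and Perk-null in orange; Tg is thapsigargin and Halo. is halofuginone. Perk-null cells in thapsigargin hold the highest Ldha mean (1551 CPM) and WT cells with halofuginone and thapsigargin the lowest (463 CPM).

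Of 31 further glucose transport and glycolysis genes 24 were tested. Thapsigargin raised 5 and lowered 12 of them in WT cells (median log2 -0.34, against 0.02 for all tested genes). The 5 became 1 without WT thapsigargin replicate 3, and 3 without WT DMSO replicate 1 or 2. In Perk-null cells thapsigargin raised 5 and lowered 2 (median 0.24, against 0.05), and raised 10 with the replicate block. Halofuginone raised 5 and lowered 16 in WT (median -0.72, against 0.00) and raised 2 and lowered 14 in Perk-null cells (median -0.55, against 0.00). Over thapsigargin it raised 4 and lowered 12 in WT (median -0.43, against 0.00) and raised 2 and lowered 16 in Perk-null cells (median -0.73, against -0.01), and BtdCPU raised 4 and lowered 9 in Perk-null cells (median -0.33, against -0.04). Of all tested genes, thapsigargin called 24.9% higher and 22.7% lower in WT and 15.2% and 12.7% in Perk-null cells, and halofuginone 34.7% and 33.4% in WT and 21.2% and 21.0% in Perk-null cells. Over thapsigargin, halofuginone called 22.8% of all genes higher and 22.5% lower in WT and 25.2% and 27.5% in Perk-null cells, and BtdCPU 17.3% and 18.3% in Perk-null cells. Perk-null cells in DMSO held 11 of the 24 higher and 6 lower than WT cells (median 0.33, against 0.02; 24.6% and 24.9% of all genes). The glucose transporter Slc2a3 was among the higher (log2 4.99, SE 0.50, adjusted p = 5.61e-10). So was Slc16a3 (6.09, SE 0.81, adjusted p = 1.84e-07), with a group at no more than 3 counts in any library. Pfkfb4 was lower (-1.79, SE 0.17, adjusted p = 3.04e-10). BtdCPU alone raised 2 and lowered 4 in WT cells (median -0.07, against -0.01), beside 12.9% of all genes called higher and 9.31% lower. The 2 became 1 without BtdCPU replicate 1 or 3 or DMSO replicate 1 or 2, and the 4 became 7 without BtdCPU replicate 2, 1 without replicate 3, and 2 without replicate 1 or DMSO replicate 1. In Perk-null cells BtdCPU alone raised 0 and lowered 1 (median -0.04, against 0.00), beside 2.55% of all genes called higher and 1.04% lower. These counts were 1 and 3 with the replicate block, and 0 were lower without any 1 of the 6 libraries. BtdCPU over thapsigargin in WT cells raised 0 and lowered 2 (median -0.24, against 0.00), where 2.32% of all genes were called in either direction. These counts were 3 and 6 with the replicate block, and 0 to 1 were lower without any 1 of the 6 libraries.

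Among these genes Pfkm, the muscle-type phosphofructokinase, fell in WT cells with thapsigargin (log2 -1.44, SE 0.13, adjusted p = 9.08e-11) and with halofuginone (-3.59, SE 0.14, adjusted p = 6.01e-19). In Perk-null cells Pfkm fell with halofuginone (-1.53, adjusted p = 5.39e-11), and its thapsigargin response differed between genotypes by 1.98 (adjusted p = 3.70e-10). Pfkfb4, which makes the activator fructose 2,6-bisphosphate, fell in WT cells with thapsigargin (-2.19, adjusted p = 1.02e-11) and rose there with halofuginone over thapsigargin (1.53, adjusted p = 2.16e-08). Eno2, the neuronal enolase, rose in WT cells with halofuginone (3.06, SE 0.31, adjusted p = 4.34e-10). Slc16a3, which exports lactate, rose in Perk-null cells with thapsigargin (1.77, SE 0.46, adjusted p = 0.00373) and fell below thapsigargin when BtdCPU (-4.10) or halofuginone (-3.59) was added (adjusted p = 4.03e-07 and 5.84e-07). Its Perk-null means were 1.56 ± 0.279 CPM in DMSO and 5.32 ± 0.615 CPM in thapsigargin.

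Known HIF-1 targets outside glycolysis (20 of 21 symbols tested) gave 9 higher and 2 lower with thapsigargin in Perk-null cells (median log2 0.42, against 0.05 for all genes, of which 15.2% were called higher and 12.7% lower; 1 lower without thapsigargin replicate 1 or 3 or DMSO replicate 1). With BtdCPU added to thapsigargin 4 were higher and 11 lower than with thapsigargin alone (median -0.53, against -0.04; 17.3% and 18.3% of all genes), and with halofuginone added 5 were higher and 11 lower (median -0.71, against -0.01; 25.2% and 27.5%). Bnip3, a mitophagy receptor, had the largest rise of the list with thapsigargin (log2 1.90, SE 0.18, adjusted p = 8.06e-10), from 7.31 ± 0.636 to 27.3 ± 2.49 CPM, and fell with BtdCPU added (-1.93) and with halofuginone added (-2.41). Ankrd37 gave 1.48, -3.34 and -3.57 in the same 3 comparisons. Vegfa, the endothelial growth factor, rose with halofuginone over thapsigargin (2.55, adjusted p = 7.63e-15). Ndrg1 rose with thapsigargin (1.21, adjusted p = 1.12e-06) and again with BtdCPU over thapsigargin (2.13, adjusted p = 3.12e-11). In WT cells with thapsigargin 7 of the list were higher and 4 lower (median 0.13, against 0.02; 24.9% and 22.7% of all genes; 2 lower without WT thapsigargin replicate 3), led by Stc2 (2.94), Ero1l (2.90) and Ndrg1 (2.74), so members of this list did not share 1 direction.

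Pyruvate dehydrogenase and its regulators (14 genes, all tested) gave 4 higher and 1 lower with thapsigargin in Perk-null cells (median log2 0.17, against 0.05 for all genes, of which 15.2% were called higher and 12.7% lower). The 4 became 1 without Perk-null thapsigargin replicate 3, and 2 without Perk-null DMSO replicate 1 or 3; the 1 lower became 2 with the replicate block or without thapsigargin replicate 2, and 0 without thapsigargin replicate 1 or 3 or DMSO replicate 1 or 2. The kinase Pdk2 was among the 4, at 3.96 ± 0.199 CPM against 0.950 ± 0.459 CPM in DMSO (log2 2.05, SE 0.33, adjusted p = 1.09e-05). In DMSO, Perk-null cells held 2 of the 14 higher and 4 lower than WT cells (median -0.10, against 0.02 for all genes, 24.6% higher and 24.9% lower). The kinases Pdk4 (-4.87, SE 0.25, adjusted p = 1.24e-16) and Pdk2 (-1.62, SE 0.33, adjusted p = 0.000121) were lower there, while Pdk1 was higher. With halofuginone in WT cells 3 of the 14 were higher and 9 lower (median -0.56, against 0.00 for all genes, 34.7% higher and 33.4% lower), among them the phosphatase Pdp2 (-2.48) and Pdk2 (-2.81) lower and Pdk4 (1.29) higher. The pentose phosphate enzymes (8 genes, all tested) gave 6 lower and 0 higher with halofuginone in WT cells (median -1.08, against 0.00 for all genes, 33.4% lower and 34.7% higher). In Perk-null cells 5 were lower and 1 higher (median -0.39, against 0.00 for all genes, 21.0% lower and 21.2% higher; 2 higher without Perk-null DMSO replicate 2). G6pdx, its first enzyme, fell by 2.44 and 1.11 on the log2 scale (adjusted p = 1.93e-14 and 4.33e-07).

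The transcriptional and energy regulators (12 of 13 tested) gave 9 higher and 0 lower with halofuginone in WT cells (median log2 0.57, against 0.00 for all genes, 34.7% higher and 33.4% lower). With thapsigargin in Perk-null cells 1 was higher and 4 lower (median 0.00, against 0.05 for all genes, 15.2% higher and 12.7% lower; 2 lower without Perk-null thapsigargin replicate 3 or DMSO replicate 1). Myc, a transcription factor known to act on glycolytic genes, was at 91.4 ± 18.5 CPM in WT and 125 ± 8.48 CPM in Perk-null cells in DMSO, and at 301 ± 42.3 and 51.1 ± 1.38 CPM in thapsigargin. It rose with thapsigargin in WT (log2 1.72, SE 0.19, adjusted p = 8.06e-09), fell in Perk-null cells (-1.29, SE 0.19, adjusted p = 3.50e-06) and differed between them by -3.01 (SE 0.27, adjusted p = 3.13e-10). Myc then rose over thapsigargin in Perk-null cells with BtdCPU (2.25, adjusted p = 2.47e-10) and halofuginone (3.11, adjusted p = 6.99e-14). Against DMSO, BtdCPU raised Myc in WT (1.57, adjusted p = 2.99e-07) and Perk-null cells (0.80, adjusted p = 0.00898). Halofuginone alone also raised Myc in WT (2.80, adjusted p = 1.25e-13) and Perk-null cells (1.95, adjusted p = 1.1e-09). Hk2 was called higher in each of these comparisons as well. In WT cells halofuginone over thapsigargin raised Myc (0.95, adjusted p = 9.62e-05), where Hk2 gave -0.42 and did not pass (it did with genes of low counts kept in). Whether the 2 genes are linked was not tested. Hif1a itself rose in WT cells with thapsigargin (0.58, SE 0.09, adjusted p = 1.81e-06) and BtdCPU (0.53, adjusted p = 4.55e-05). Its WT means were 211 ± 12.7 CPM in DMSO, 317 ± 26.3 CPM in thapsigargin, 305 ± 25.6 CPM in BtdCPU and 333 ± 20.3 CPM in halofuginone, and its Perk-null means 199 ± 9.76 CPM in DMSO, 219 ± 15.6 CPM in thapsigargin and 290 ± 7.49 CPM in BtdCPU with thapsigargin.

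Over the 12 group means, the tested gene whose log2 CPM followed each member most closely was named as a description, since the groups share genotype and treatment. Aldoa and Pgk1 were each other's nearest gene (Pearson's r = 0.988 over 12 group means). The nearest gene was Rnf128 for Slc2a1 (0.957), Rps2 for Hk1 (0.991), Nat10 for Hk2 (0.960), Sall2 for Pfkl (0.990) and Fam177a for Pfkp (0.931). It was Adk for Pkm (0.986), Ndufa5 for Ldha (0.996) and 1190005I06Rik for Pdk1 (0.983).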

How the data were processed

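Bulk RNA-seq of 36 libraries was analysed, 3 in each of 12 groups read from the titles given to each sample. The members and gene lists were chosen with earlier results of these data known. Per the labels, libraries were strand-specific and sequenced by DNBSEQ, and the protocol names both ribosomal depletion and mRNA selection. The authors deposited 1 table of estimated counts per gene, unscaled, with 0.025 standing for 0 (50.6% of values). The submitters' processing notes name GRCm39 and DESeq with no version or role, and the aligner, counter, annotation and use of strand are not given in the sources used here.

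From these, 27 entries named by a number or date (0.206% to 0.278% of a library) were left out, 39 symbols on 86 entries were summed, and values were rounded to whole numbers. No library repeated another of its group (chi-square per degree of freedom at least 9.66). Genes were kept by filterByExpr, scaled by TMM and tested with edgeR 4.0.16 in R 4.3.3 (quasi-likelihood, 12 group means, 24 residual degrees of freedom), in 11 comparisons of 2 groups and 5 interactions (Perk-null response minus WT response), with Benjamini-Hochberg adjustment within each. The fitting script was tested on simulated data. The 10 members were described in every comparison; from each list at most 3 called genes of largest change per comparison were named, with Eif2ak3 as a check of the labels.

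Alternatives were scaling by library size or DESeq2 size factors, DESeq2 1.42.0, no filter on low counts, the compared groups only, a replicate block within genotype, and leaving out each library. Replicate numbers were taken to pair samples where the deviations of every same-numbered pair correlated above 0.1. This held within each genotype except for Perk-null halofuginone against DMSO (lowest 0.0999) and Perk-null halofuginone with thapsigargin against thapsigargin (0.0483). It did not hold between genotypes in DMSO, where the pairs of replicates 1, 2 and 3 gave -0.0189, 0.581 and 0.56. Exon lengths are of GENCODE M21 on GRCm38, and promoters of RefSeq GRCm38.p6; no coordinates were carried between builds.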

Additional observations from a re-analysis of the deposited data

Results flagged for a closer look

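The responses of the genotypes to the same agent differed by edgeR's quasi-likelihood test of the interaction (adjusted p below 0.05) for 20 pairs of member and agent, given here as the Perk-null minus the WT log2 response. For thapsigargin the differences were 0.69 for Hk1, -3.00 for Hk2, 1.16 for Pfkl, -0.75 for Pfkp, 0.63 for Pkm, 0.65 for Ldha and 1.46 for Pdk1. For Hk2 and Pfkl the change was called in opposite directions in the 2 genotypes. For halofuginone the differences were 0.99 for Hk1, 0.86 for Pfkl, 0.70 for Ldha and 0.73 for Pdk1. For BtdCPU over thapsigargin they were 2.21 for Hk2, -0.88 for Pfkl and -1.35 for Pdk1. For halofuginone over thapsigargin they were -0.47 for Slc2a1, 2.68 for Hk2, -0.61 for Pfkl, 0.85 for Pfkp, -0.40 for Pkm and -0.89 for Pdk1. Of all tested genes 38.1% were called for thapsigargin, beside 7 of the 10 members, and 35.0% for halofuginone, beside 4. For BtdCPU over thapsigargin the share was 20.8%, beside 3 members, and for halofuginone over thapsigargin 32.7%, beside 6. For BtdCPU alone it was 0.199%, beside 0 members. The Slc2a1 call was lost without any 1 of 9 of the 12 libraries, and limits of Ldha, Pkm and Pdk1 calls are given above. Groups held 3 libraries each, and single outlying libraries were not checked by Dixon's ratio.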

How the results depend on the processing

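Of the 10 members in 16 comparisons, no value changed sign with a call under any alternative tried. Leaving out 1 library kept 526 of 600 calls (a call being counted for each library left out) and ended 74, and added 10 among the 660 values not called. Scaling by library size ended 4 calls and added 3, the compared groups alone ended 4 and added 3, keeping genes with low counts ended 6 and added 4, DESeq2 size factors ended 2, and DESeq2's test added 4. The replicate block ended none of the 80 calls and added 16. Of those, Hk1 for Perk-null halofuginone over thapsigargin (-0.22, adjusted p = 0.010) and Aldoa for the genotype difference of that response (-0.27, adjusted p = 0.021) were in comparisons whose numbers did not pair the samples. The count of members called in Perk-null BtdCPU against DMSO was 1, and 2 with no filter, 4 with the replicate block, 4 with the compared groups only, 3 with DESeq2, and 0 to 1 without single libraries. For WT BtdCPU over thapsigargin it was 0, and 3 with the replicate block and 1 with DESeq2. For the genotype difference with BtdCPU it was 0, 1 with no filter, and 0 to 1 without single libraries. Without single libraries it was 2 to 3 for Perk-null thapsigargin, 5 to 8 for Perk-null halofuginone, 5 to 7 for the genotypes in DMSO, and 3 to 6 for the genotype difference with halofuginone over thapsigargin. The cause was not tested.

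Over all genes, WT BtdCPU against DMSO had 3571 calls, 5534 with the replicate block and 835 with the compared groups only. Perk-null BtdCPU had 577, and 1577, 1265 and, with DESeq2, 877. WT BtdCPU over thapsigargin had 372, and 2079, 23 and 809, and 813 with no filter. The genotype difference with BtdCPU had 32, and 587, 2 and 156, and 314 with no filter. Scaling by library size only moved the median of all genes by -0.11 for WT halofuginone, 0.10 for the halofuginone genotype difference and -0.13 for that of BtdCPU over thapsigargin. At 109 to 1304 counts, Pdk1 was the member with the fewest counts in a library.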

Other observations

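Across the 12 group means, on the log2 CPM scale, Aldoa and Pgk1 correlated at r = 0.988, Pgk1 and Ldha at 0.927, Pgk1 and Pdk1 at 0.922, Hk1 and Ldha at 0.921, Pfkl and Aldoa at 0.919, Ldha and Pdk1 at 0.877, and Hk2 and Pfkp at 0.832. Enzymes of the same step gave 0.227 (Hk1 and Hk2) and -0.210 (Pfkl and Pfkp). Hk2 gave -0.591 with Pkm, -0.313 with Pfkl and -0.249 with Pdk1, and Pfkp gave -0.655 with Pkm. Hk2 and Myc, the only pair of a member and a listed regulator that was picked out, gave 0.640. Whether Myc acts on Hk2 was not tested. All these correlations are descriptions over 12 means that share genotypes, treatments and the scaling of the libraries, with no test.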
